A study of Saccharomyces cerevisiae with 8 samples.

Results

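The binding events of MCM2-7 and of ORC in G1-phase were compared with each other, origin by origin. MCM2-7 was represented by 2 lists of ChIP-Exo events of FLAG-tagged Mcm4 and ORC by 2 lists of events of FLAG-tagged Orc2, 4 of the 8 samples of the series, and these held 6254 of the 9293 events in the 6 lists at hand. All events of the 4 lists were pooled and chained along each chromosome: an event up to 250 bp from the last one joined its locus. This gave 355 loci, and number, spread, spacing and position of the events of each protein were then measured per locus, each replicate on its own.

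In ChIP-Exo, an exonuclease digests the precipitated DNA until it meets the cross-linked protein, and the ends of the sequenced fragments then show where the protein sat. The study mapped in this way where the replication machinery sits before and after origin licensing in budding yeast. The MCM2-7 cells were of strain YC779 and the ORC cells of strain YC795, both W303, and both were arrested in G1-phase with the mating pheromone alpha-factor, with 2 biological replicates each. The antibody was anti-Flag F-1804 for both proteins. The proteins were thus tagged in different strains and none of the 4 samples holds both, so that MCM2-7 and ORC at a locus come from different cultures. Each tag reports 1 subunit of its complex, and each list pools a population of cells, in which a locus with several events may hold them in the same or in different cells. Orc2 in G2-phase (nocodazole arrest) was used below for a single comparison, and the S-phase samples were not analysed here.

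ORC is the complex that recognises origins, and in budding yeast it binds the ARS consensus sequence (ACS), a T-rich motif found in some form at most origins. With Cdc6 and Cdt1 it loads the MCM2-7 helicase, which ends up as a head-to-head double hexamer closed around double-stranded DNA. The loaded helicase, which the paper describes as largely static at origins, waits on the DNA until S-phase kinases turn it into the active replicative helicase.

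The sequence around the ACS is shown for 4 origins, chosen because their events are described one by one below. Each stretch is given 5′ to 3′ along the strand of the ACS from 30 bases before to 90 bases after the ACS centre, with the extended 17-base match in capitals. They were read from the RefSeq R64 genome of strain S288C. ARS305 is at chrIII:39494-39614 on the minus strand, ARS607 at chrVI:199391-199511 on the plus strand, ARS1524 at chrXV:783372-783492 on the minus strand and ARS106 at chrI:70334-70454 on the minus strand.
ARS305: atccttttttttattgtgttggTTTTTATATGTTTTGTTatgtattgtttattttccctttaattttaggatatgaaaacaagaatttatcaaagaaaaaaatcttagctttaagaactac
ARS607: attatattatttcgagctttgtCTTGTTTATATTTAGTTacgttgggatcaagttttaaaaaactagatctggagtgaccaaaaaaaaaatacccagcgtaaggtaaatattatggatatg
ARS1524: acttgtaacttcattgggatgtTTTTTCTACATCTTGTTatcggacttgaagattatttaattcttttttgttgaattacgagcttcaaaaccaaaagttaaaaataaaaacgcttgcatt
ARS106: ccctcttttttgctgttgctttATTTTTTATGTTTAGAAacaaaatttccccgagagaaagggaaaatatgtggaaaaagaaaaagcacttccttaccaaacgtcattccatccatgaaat
The match held 16 of the 17 consensus bases at ARS305 and 15 at ARS607, ARS1524 and ARS106.

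The lists held 1982 and 1723 MCM2-7 events against 1170 and 1379 ORC events. The score that the authors' caller gave each event reached its cap of 1000 for 59.1% and 51.9% of the MCM2-7 events, against 29.4% and 35.4% of the ORC events. The MCM2-7 lists were therefore both longer and richer in events at the cap, and this moves with every count below. As the files hold no read counts, sequencing depth is unknown here, and its part in these differences was not tested. Results were therefore also given with the first 1170 events of each list, the length of the shortest. The lists run broadly from high to low score, with a Spearman correlation of score and place of 0.889 and 0.925 for MCM2-7 and of 0.987 and 0.977 for ORC. For MCM2-7 the first 1170 events are thus mostly those with the highest scores. For ORC replicate 1 they are the whole list, down to a score of 67, and for ORC replicate 2 most of its 1379 events. Lists of equal length are therefore not alike in score.

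Of the 355 loci, 345 held at least 1 event in each of the 4 lists (97.2%). Whether the lists had been limited to known origins before deposit is not given in the sources used here. For its own set of origins, the paper states that those without MCM2-7 occupancy were left out. The paper does report ORC sites outside origins in this phase at which the helicase was not seen. Loci of this kind were nearly absent from the 4 lists, where ORC alone was found at 2. The share of 97.2% may therefore be set in part or wholly by how the lists were made, which was not tested. It cannot show how often ORC lies on DNA without MCM2-7. Besides the 345 loci, 5 had MCM2-7 events in both replicates and ORC events in 1, and 1 locus had an MCM2-7 event in 1 replicate and ORC events in both. Only 4 loci of these lists held a single protein. Loci were 335 bp wide in the median (quartiles 270 and 383.5 bp), from the first to the last pooled event, and 287 lay within 500 bp of 1 of the 352 origins annotated in R64. With 1170 events of each list, 310 loci still had both proteins in every list.

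The exceptions were few and mostly small. At chrIII:10352-10758, inside VBA3, a vacuolar transporter gene, and 388 bp from ARS301, ORC replicates 1 and 2 had 3 and 4 events and both MCM2-7 replicates had 0. This was the locus with most ORC events among those without MCM2-7, and it lies near the silent mating-type cassette HML. All 7 events were late in their lists, at place 986 or later of 1170 and at place 1197 or later of 1379. The other ORC-only locus, at chrV:27487-27487 between HPA3 and SIT1, had a single event in ORC replicate 1. The MCM2-7-only loci, at one edge of ARS436 and between PPE1 and PTC7, also had a single event each, in 1 replicate. Where ORC was found in 1 replicate only, MCM2-7 could be well represented: ARS1410, between TOF1 and SEC2, had 9 and 7 MCM2-7 events, against 5 and 0 ORC events.

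MCM2-7 had more events per locus than ORC. Over the 345 loci with both proteins in every list, the mean was 5.68 and 4.93 MCM2-7 events in replicates 1 and 2, against 3.35 and 3.97 ORC events. The difference of the means was 1.64 events per locus, and no MCM2-7 list lay below an ORC list. The exact permutation test over the 4 lists gave p = 0.333 (two-sided), which is the smallest p that 2 lists against 2 allow. At least 6 events were found at 51.3% and 36.2% of the loci for MCM2-7, against 6.96% and 20.9% for ORC. A single event stood at 1 and 14 loci for MCM2-7, against 23 and 32 loci for ORC. By read depth, the paper describes an isolated or a prominent single MCM2-7 peak at most origins, with most reads in a narrow window. Events were counted here without regard to score. Their number and spread are therefore unlike that measure and do not give the number of helicases at an origin.

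**Figure D1:**
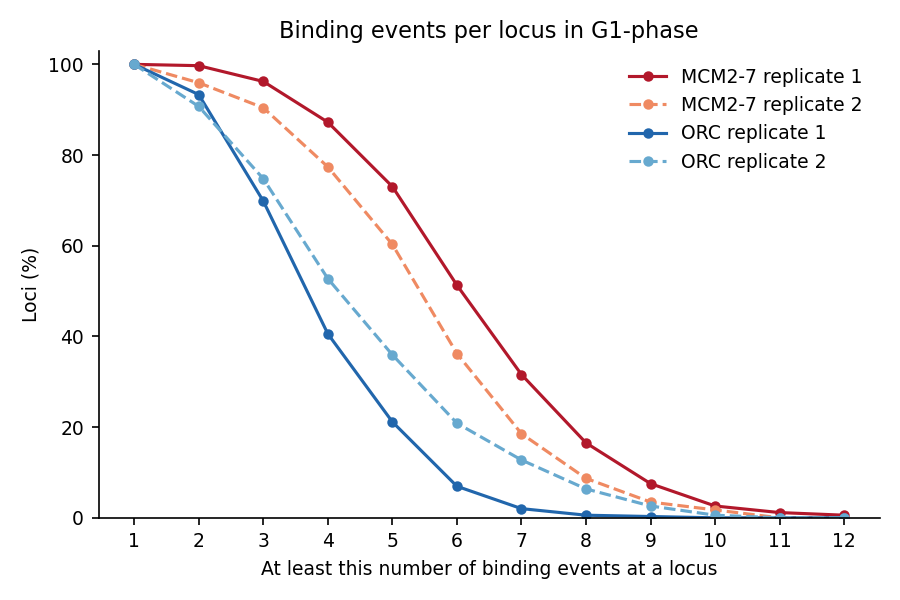
Percent of the 345 loci (y axis) that hold at least the number of binding events on the x axis, with a line for each of the 4 lists. Both MCM2-7 lines lie above both ORC lines from 2 to 10 events, and at 6 events they stand at 51.3% and 36.2% for MCM2-7 and at 6.96% and 20.9% for ORC.

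The replicates of a protein also differed from each other, which limits what the difference between the proteins can carry. MCM2-7 replicate 1 had more events than replicate 2 at 189 loci and fewer at 84, and ORC replicate 2 had more than replicate 1 at 166 and fewer at 102. Between the proteins, MCM2-7 exceeded ORC at 280, 231, 244 and 200 of the 345 loci in the pairs of replicates 1 and 1, 1 and 2, 2 and 1, and 2 and 2. With lists of 1170 events the mean was 3.60 and 3.53 MCM2-7 events against 3.44 and 3.69 ORC events, over 310 loci. Nearly all events of each list lay at the 345 shared loci, such as 1958 of 1982 for MCM2-7 replicate 1 and 1155 of 1170 for ORC replicate 1. The mean per locus thus follows the length of a list, and equal lists give nearly equal means by construction. The higher number of MCM2-7 events per locus therefore restates the greater length of the MCM2-7 lists, and equal lists cannot test it.

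A locus rich in MCM2-7 events was not, as a rule, a locus rich in ORC events. Across the 345 loci, which share their lists and are no replicates, Pearson's r of the number of events was 0.17 to 0.19 between an MCM2-7 and an ORC list. It was 0.54 between the MCM2-7 replicates and 0.34 between the ORC replicates. The proteins thus resembled each other less in their number of events than either resembled its own replicate. For the span (284 loci with at least 2 events in each list) this held for MCM2-7 only. There r was 0.217 to 0.285 between the proteins, 0.561 between the MCM2-7 replicates and 0.278 between the ORC replicates.

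**Figure D2:**
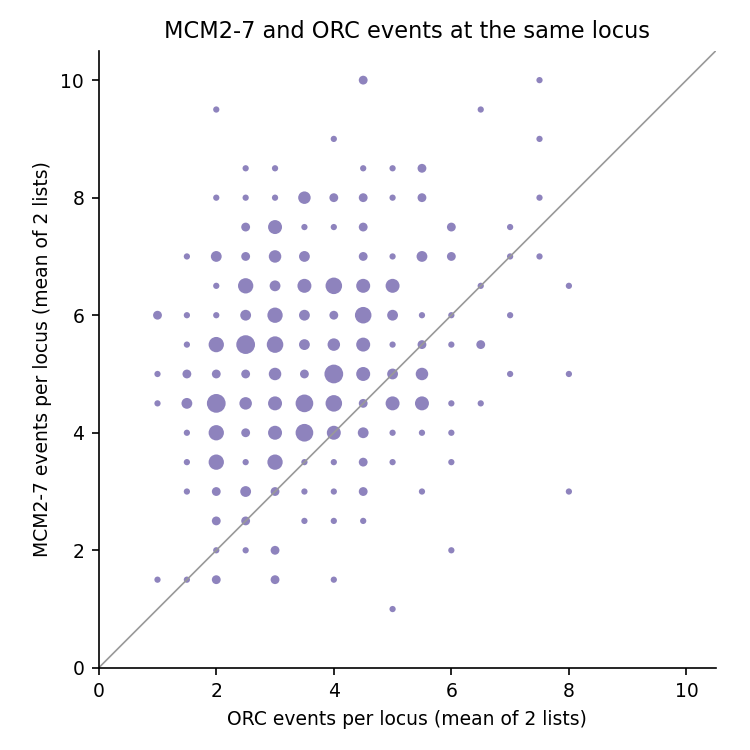
Number of MCM2-7 events (y axis) and of ORC events (x axis) at each of the 345 loci, as means of 2 lists, where the area of a point is in proportion to the number of loci and the line marks equal numbers. Most loci lie above the line, and those with the most MCM2-7 events are spread widely along the ORC axis.

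No single locus passed the test for number. In limma on log2(events + 1), fitted across all 355 loci, 0 had more and 0 had fewer MCM2-7 events at an adjusted p below 0.05 (Benjamini-Hochberg), that is 0% called in each direction. The lowest adjusted p was 0.0538, and 81 loci had an unadjusted p below 0.05. As a description, both MCM2-7 lists exceeded both ORC lists at 152 loci (42.8%) and both ORC lists exceeded both MCM2-7 lists at 11 (3.1%). The fit leaves 2 degrees of freedom and takes little from the other loci, and its calls depended on the setting: leaving out ORC replicate 1 gave 16 loci with more and 4 with fewer MCM2-7 events, leaving out ORC replicate 2 gave 25 and 5, and leaving out either MCM2-7 replicate gave 0.

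The loci with the largest differences in favour of MCM2-7 had many MCM2-7 events around 1 or a few ORC events. At chrIV:157924-158141, an unannotated site between UGA3 and UGX2, both MCM2-7 lists had 6 events and both ORC lists had 1. The 2 ORC events stood on the same base, 172 bp from the left edge, while the MCM2-7 events fell into a group up to 74 bp from the left edge and another from 160 to 217 bp. The difference was 1.81 on the log2 scale (SE 0.10, limma adjusted p = 0.0538). ARS1233, between CAR2 and LSM3, also had 6 and 6 MCM2-7 events against 1 and 1 ORC events. ARS434, between the spore wall gene DIT1 and the RNA polymerase II subunit gene RPB7, had 10 and 9 MCM2-7 events against 2 and 2 ORC events, and ARS720, between STF2 and SEC9, had 6 and 8 against 1 and 2. The lists of the proteins did not overlap at any of these loci, and at ARS1410 (above) they differed by 1.87 on the log2 scale (SE 1.07, limma adjusted p = 0.395).

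At a few loci it was ORC that had more events. Beside the HML-proximal site described above, ARS1001, at the left end of chromosome X, had 1 and 1 MCM2-7 events against 7 and 3 ORC events. Its single MCM2-7 events stood at place 1 of the list of replicate 1 and at place 2 of that of replicate 2. ARS1019, between the J-protein gene JJJ3 and YJR098C, had 3 and 1 MCM2-7 events against 5 and 7 ORC events. At chrII:591396-591797, between DTR1 and the ribosomal protein gene RPS6B, the MCM2-7 lists had 3 and 3 events and the ORC lists 8 and 8 (log2 difference -1.17, SE 0.10, limma adjusted p = 0.0735). There the ORC events of both replicates fell into 2 groups, 39 to 151 bp and 332 to 401 bp from the left edge. ARS607, in the middle of which the annotation places the noncoding RNA gene RUF22, had 2 and 1 MCM2-7 events against 3 and 3 ORC events.

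The events of MCM2-7 were spread over more DNA than those of ORC. At the 284 loci with at least 2 events in each list, the median span from the first to the last event was 257.5 and 231 bp for MCM2-7, against 156.5 and 185.5 bp for ORC. The difference was 73.2 bp (exact permutation test over the lists, two-sided, p = 0.333, the smallest possible). Spans over 200 bp were seen at 64.4% and 60.6% of these loci for MCM2-7, against 38.4% and 46.1% for ORC. The stretch covered by ORC events lay inside that of MCM2-7 events at 47.5%, 39.8%, 35.9% and 27.1% of the loci in the 4 pairs of lists, and the stretch of MCM2-7 lay inside that of ORC at 11.6%, 9.51%, 16.5% and 15.8%. Between the MCM2-7 replicates, the stretch of replicate 2 lay inside that of replicate 1 at 36.3% and the opposite held at 17.3%, as unequal as for MCM2-7 replicate 2 with ORC replicate 1. Stretches that did not touch were rare, with 3, 7, 5 and 11 loci.

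The wider span went with the higher number of events. With 1170 events of each list, the median span was 142.5 and 153 bp for MCM2-7 against 134.5 and 143 bp for ORC, at 214 loci. Where an MCM2-7 and an ORC list had the same number of events at a locus, MCM2-7 spanned 132, 194, 121 and 206 bp against 205, 165, 172 and 209 bp for ORC in the 4 pairs of lists, without a common direction (38 to 53 loci per pair). In limma on the span, 0 of 284 loci were wider and 0 narrower for MCM2-7 (0% called in each direction), with a lowest adjusted p of 0.209 and 42 loci at an unadjusted p below 0.05. Both MCM2-7 spans exceeded both ORC spans at 105 loci (37%), and both ORC spans exceeded both MCM2-7 spans at 30 (10.6%).

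The median gap between neighbouring events of a list was 40 and 34 bp for MCM2-7, against 42 and 36.5 bp for ORC, and the difference of -2.25 bp was smaller than the difference between the replicates of either protein (exact permutation test, two-sided, p = 0.667). Long gaps were less common in both MCM2-7 lists than in either ORC list: 10.2% and 15.4% of its gaps were over 100 bp, against 24.2% and 18.8% for ORC. Gaps below 30 bp made up 34.8% and 45.7% for MCM2-7, against 37.7% and 42.9% for ORC. For these short gaps, the MCM2-7 replicates were further apart than the proteins.

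The largest differences in span included origins where a few ORC events had MCM2-7 events on both sides, such as ARS434 and ARS1524. At ARS434, MCM2-7 spanned 346 and 364 bp and ORC 68 and 37 bp (difference 302.5 bp, SE 54.4, limma adjusted p = 0.209). At ARS1524, between the oxysterol-binding protein gene HES1 and YOR238W, MCM2-7 spanned 322 and 318 bp and ORC 58 and 21 bp. At ARS106, between CYC3 and the pyruvate kinase gene CDC19, MCM2-7 spanned 329 and 355 bp and ORC 37 and 129 bp. ARS522, between the meiotic genes DMC1 and ISC10, had 385 and 300 bp for MCM2-7 and 14 and 176 bp for ORC, and an unannotated site between HSP31 and FIT1 had 410 and 369 bp against 119 and 136 bp. At each of these 5 loci both MCM2-7 spans exceeded both ORC spans, and none passed the test.

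Single events show how this looked on the DNA. At ARS1524 the ORC events stood 60, 25 and 2 bp downstream of the ACS centre in replicate 1 and 65 and 44 bp downstream in replicate 2. MCM2-7 events of replicate 2 stood at 266, 192, 98, -31 and -52 bp, and those of replicate 1 had a neighbour within 25 bp of each of these. The MCM2-7 events first in their lists, at 100 and 98 bp, lay outside the ORC events, which were first listed at 60 and 65 bp. At ARS106 the first-listed ORC events at 33 and 21 bp and the first-listed MCM2-7 events at 23 and 31 bp lay within 12 bp of each other, and the outer MCM2-7 events stood at 168 and -161 bp in replicate 1 and at 183 and -172 bp in replicate 2.

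ARS1, a long-studied yeast origin between TRP1 and GAL3, had 8 and 6 MCM2-7 events against 3 and 1 ORC events. All 4 ORC events lay in the first 25 bp of the locus chrIV:462552-462801. MCM2-7 had 3 and 2 events in its first 31 bp, among them the first-listed event of both replicates, 11 and 20 bp from the left edge. A second MCM2-7 group without ORC events stood 114 to 249 bp from the left edge in replicate 1 and 151 to 235 bp in replicate 2. The mean MCM2-7 position was 105 bp further right than that of ORC (SE 23.1, limma adjusted p = 0.238). The ACS at ARS1 could not be used, as 3 matches were equally good.

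ARS305, ARS607 and ARS1021 differed from this. At ARS305, between APA1 and YCL049C, ORC had the wider span in both replicates, with 151 and 76 bp against 32 and 60 bp for MCM2-7. MCM2-7 events stood 71, 51 and 39 bp downstream of the ACS in replicate 1 and at 57 and -3 bp in replicate 2, and ORC events reached to -94 and -70 bp, upstream. At ARS607 MCM2-7 stood 25, 48 and 51 bp downstream of the ACS, where the events at 25 and 51 bp stood at place 3 of their lists. The first-listed ORC events at ARS607 were 1 and 6 bp downstream. At ARS1021, between MET5 and IML1, MCM2-7 had 9 and 6 events and ORC 5 and 9, and the lists overlapped in number and span. The mean position there was 216 and 201 bp downstream of the match for MCM2-7, against 199.8 and 172 bp for ORC, so that the centres did not overlap, with a difference of 23.0 bp (SE 23.9, limma adjusted p = 0.615).

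**Figure D3:**
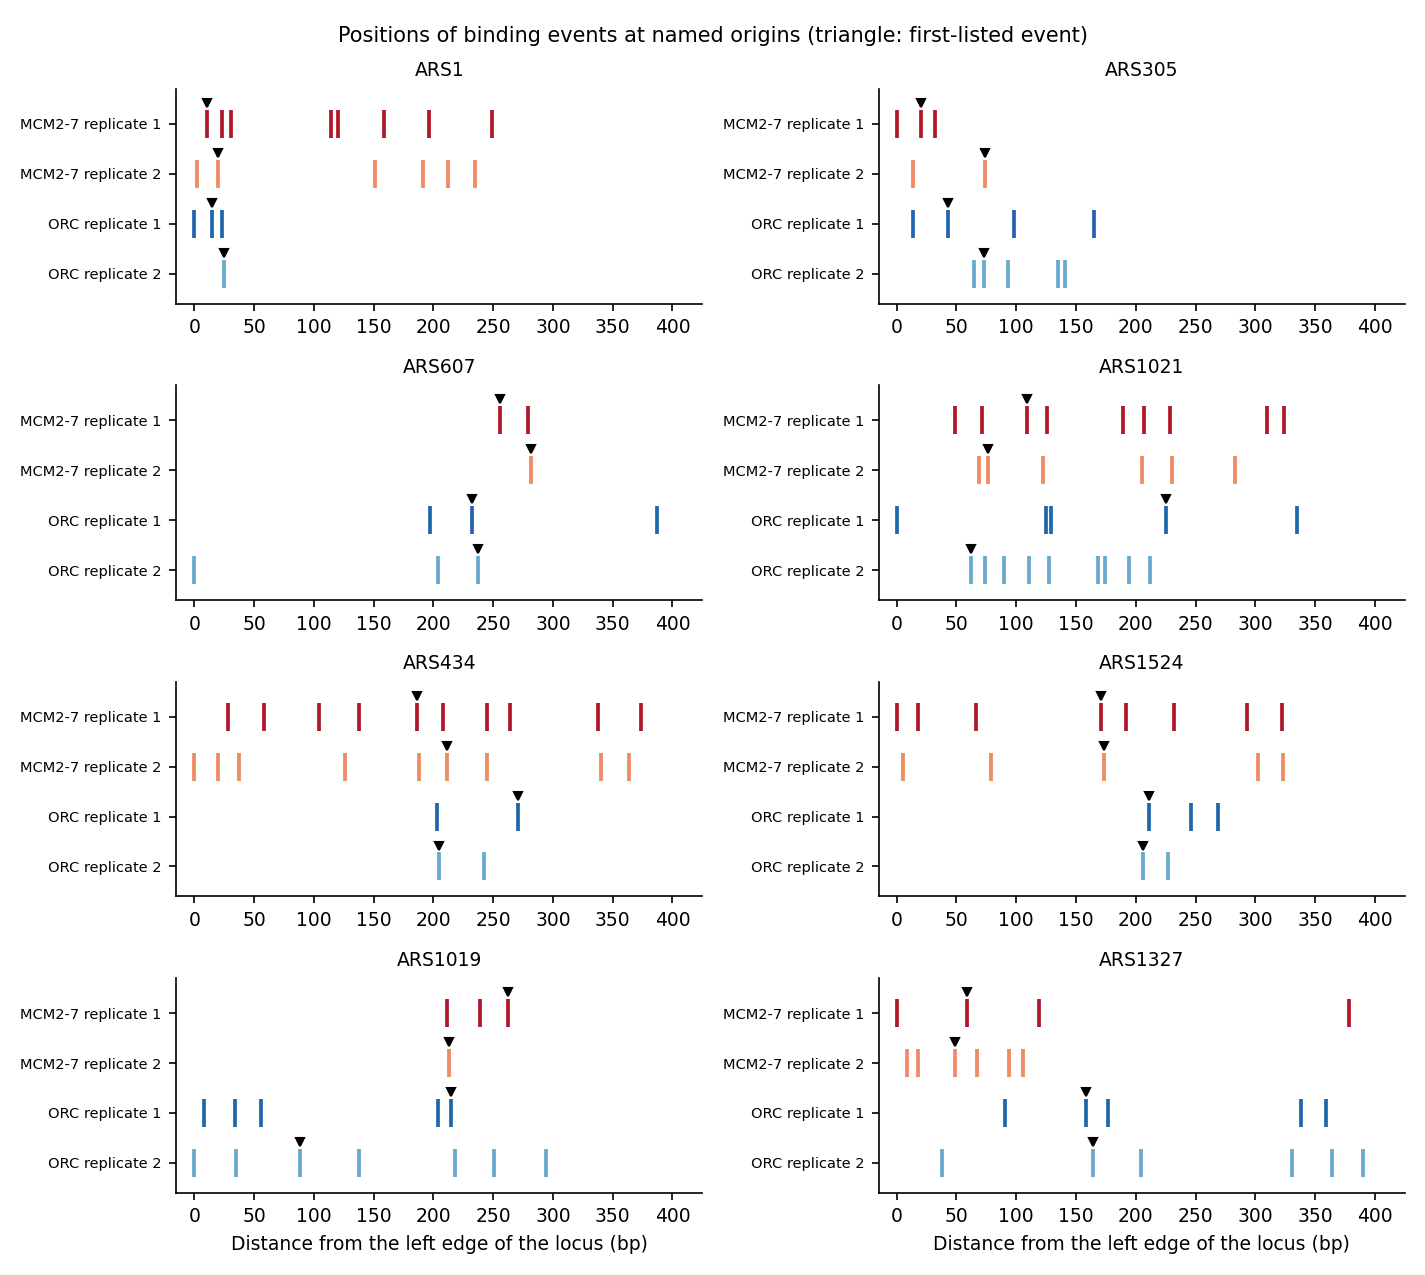
Positions of the binding events at 8 origins, as distance in bp from the left edge of each locus (x axis), with a row for each list and a triangle above its first-listed event. ORC events are gathered in a short stretch inside a wider field of MCM2-7 events at ARS434 and ARS1524 and at the left edge of that field at ARS1, and reach further than the MCM2-7 events at ARS305, ARS607 and ARS1019.

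MCM2-7 and ORC events often lay on nearly the same DNA. Within a shared locus a distance of 50 bp is easily met, as the median gap between events of a list was 34 to 42 bp. What share the density of events alone would give was not tested. Of the MCM2-7 events, 67.4% had an ORC event within 50 bp (mean of 4 pairs of lists), and of the ORC events 82.0% had an MCM2-7 event within 50 bp. In single pairs the shares ran from 66.6% to 68.7% of MCM2-7 events and from 78.0% to 85.7% of ORC events. Between replicates of a protein, the same share was 87.0% and 91.9% for MCM2-7, and 77.8% and 74.7% for ORC. An ORC event was thus found near an MCM2-7 event at least as often as near an event of the other ORC replicate, which is a shorter list to search.

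With 1170 events from each list and still 50 bp, ORC replicate 1 had MCM2-7 nearby for 70.2% and 71.4% of its events and ORC replicate 2 for 70.1%, while ORC replicate 2 had MCM2-7 nearby for 71.3% and 71.5% and ORC replicate 1 for 78.1%. With 1170 events from each list and a distance of 25 bp, a setting added after seeing the data, the share was 72.7% and 75.5% between the MCM2-7 replicates and 55.3% and 61.1% between the ORC replicates. It was 54.8%, 49.6%, 53.8% and 48.0% for MCM2-7 events with ORC nearby, and 55.0%, 55.2%, 52.7% and 52.8% for ORC events with MCM2-7 nearby. MCM2-7 events were placed more alike between replicates than between proteins. For ORC the answer differed by replicate: ORC replicate 1 had MCM2-7 replicate 1 nearby for 55.0% and ORC replicate 2 for 55.3% of its events, while ORC replicate 2 had MCM2-7 replicate 1 for 55.2% and ORC replicate 1 for 61.1%.

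**Figure D4:**
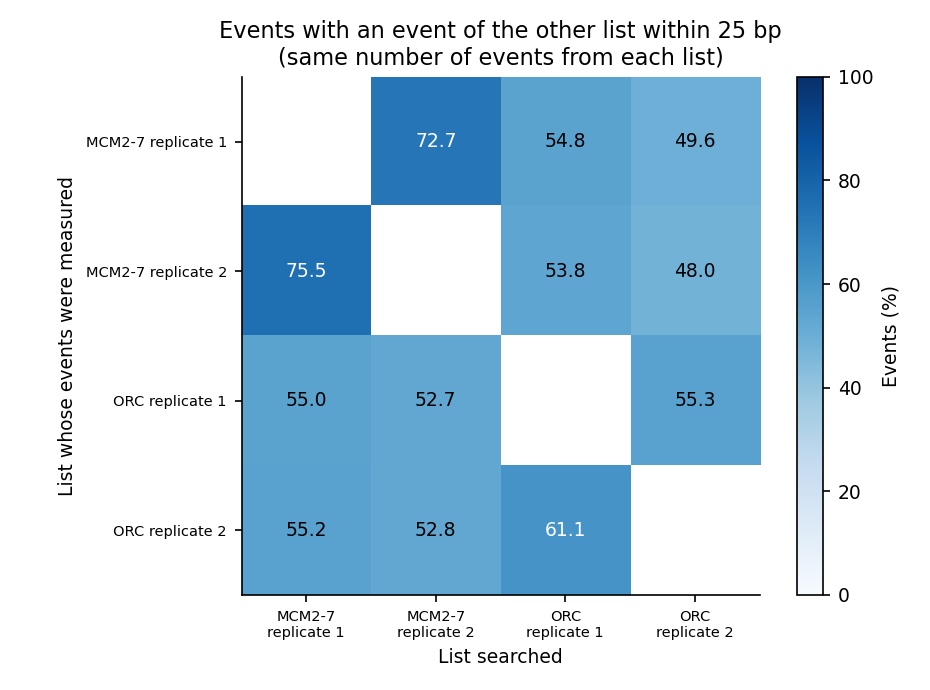
Percent of the events of the list in each row that had an event of the list in each column within 25 bp, with 1170 events taken from each list. The MCM2-7 replicates share 72.7% and 75.5%, the ORC replicates 55.3% and 61.1%, and the pairs of different proteins 48.0% to 55.2%.

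The ORC lists of G2-phase were set beside these at 861 events per list. ORC replicate 1 in G1-phase had an MCM2-7 event within 25 bp for 52.6% and 50.1% of its events, an ORC event of its own replicate for 53.0% and an ORC event of G2-phase for 51.3% and 53.9%. For ORC replicate 2 in G1-phase the shares were 50.2% and 49.6% with MCM2-7, 61.3% with its own replicate and 59.7% and 60.7% with G2-phase. The ORC lists thus differed in how far other ORC lists lay closer to them than MCM2-7 did.

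Positions found in both replicates of a protein were looked at as well, since they do not rest on 1 list. Events of the replicates that were each other's nearest and up to 25 bp apart gave 1087 such positions for MCM2-7 and 556 for ORC. They made up 54.8% and 63.1% of the MCM2-7 lists, against 47.5% and 40.3% of the ORC lists. At least 1 was found at 346 loci for MCM2-7 and at 313 for ORC. Of the 309 loci with both, 221 had more MCM2-7 positions, 58 had equal numbers and 30 had more ORC positions, with means of 3.17 and 1.78 per locus. With 1170 events of each list there were 687 such positions for MCM2-7 and 493 for ORC. MCM2-7 thus had more of them also at equal length of the lists. Between the proteins, the same rule and length gave 505 and 465 positions for MCM2-7 replicate 1 with ORC replicates 1 and 2. For MCM2-7 replicate 2 they were 482 and 440. The number for ORC lay within the range of these mixed pairs, and that for MCM2-7 lay above it. A position found in both ORC lists is therefore not shown to be particular to ORC. These equal lists still differ in score, as the ORC lists then reach further down to weak events.

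Most reproducible ORC positions had a reproducible MCM2-7 position nearby, while the opposite held less often. The nearest MCM2-7 position was 17.8 bp away in the median for ORC positions, and 60.3% of them had one within 25 bp. The nearest ORC position was 47 bp away for MCM2-7 positions, and 34.5% had one within 25 bp. More than 100 bp from any such position of the other protein were 325 of the 1087 MCM2-7 positions (29.9%) and 58 of the 556 ORC positions (10.4%). There were also fewer ORC positions than MCM2-7 positions to be found.

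The first-listed events of the proteins at a locus were close but not on the same base. They were 39, 47, 40 and 45 bp apart in the median of 345 loci in the 4 pairs of lists. The first-listed events of the MCM2-7 replicates were 20 bp apart and those of the ORC replicates 33 bp. Distances over 100 bp were found at 17.7%, 24.9%, 17.4% and 24.3% of the loci between the proteins, at 11.3% between the MCM2-7 replicates and at 16.2% between the ORC replicates.

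The ACS gave a common direction in which to compare the proteins. A match of at least 14 of the 17 bases of the extended ARS consensus sequence, searched on both strands, lay within 50 bp of the outer events at 94.1% of the loci. Windows of the same length 2000 bp to either side held one in 31.3% and 36.3%, so that a match alone does not mark an origin. A single best match was required, which left 249 loci with events in every list. Distances were counted from the middle of the match, positive in the direction of its T-rich strand.

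Both proteins peaked just downstream of the ACS, and ORC more narrowly. Among all events at these loci, 51.8% and 53.3% of the MCM2-7 events lay between -50 and +100 bp, a window set after the lists had been seen, against 63.3% and 57.3% of the ORC events. Among events at the score cap the shares were 61.3% and 65.0% for MCM2-7 against 83.4% and 77.2% for ORC. No MCM2-7 list reached an ORC list in either case, with p = 0.333 in the exact permutation test (two-sided, the smallest possible). In equal lists of 1170 events, however, the shares were 61.5% and 59.95% against 63.3% and 61.6%. The narrower place of ORC was thus most marked for events at the cap, of which the ORC lists held fewer.

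Downstream of this window, MCM2-7 kept more of its events. At over +100 bp lay 22.5% and 22.8% of the MCM2-7 events, against 17.6% and 15.9% of the ORC events, and in equal lists 18.9% and 20.5% against 17.6% and 13.5%. Upstream of -50 bp the proteins overlapped, with 25.7% and 24.0% of the MCM2-7 events and 19.1% and 26.8% of the ORC events. The bins from -125 to -101 and from -100 to -76 bp held 4.61% and 6.34% of the events of ORC replicate 2, against 2.32% and 3.59% of those of ORC replicate 1. A position seen in both replicates lay between -50 and +100 bp for 57.1% of MCM2-7 and for 73.2% of ORC positions, and over +100 bp for 21.4% of MCM2-7 and 11% of ORC positions.

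**Figure D5:**
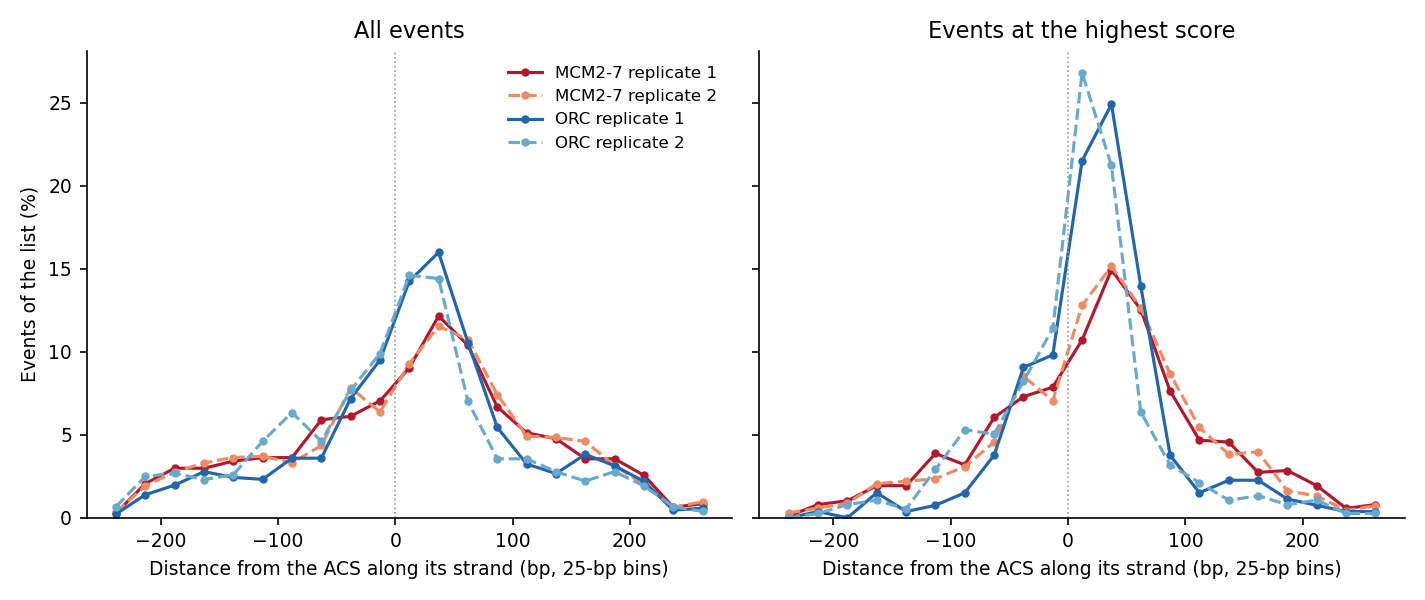
Percent of the events of each list (y axis) in bins of 25 bp by their distance from the ACS along its strand (x axis), for all events (left) and for events at the highest score (right). All 4 lists peak within 50 bp downstream of the ACS, the ORC lists higher than the MCM2-7 lists, and the peak of ORC replicate 2 lies in the bin next to the ACS.

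The first-listed MCM2-7 event stood slightly further downstream than that of ORC. Its median position was 34 and 35 bp for MCM2-7, against 26 and 19 bp for ORC (249 loci, exact permutation test over the lists, two-sided, p = 0.333, the smallest possible). Taken locus by locus, MCM2-7 minus ORC was 5, 15, 2 and 12 bp in the median of the 4 pairs. Quartiles of single pairs reached from -40 to 69 bp, so that the offset of a given origin could be in either direction. Both MCM2-7 lists had their first-listed event downstream of both ORC lists at 84 loci (33.7%), and upstream at 48 (19.3%). ORC replicate 1 itself stood 8 bp downstream of ORC replicate 2, more than the offset of MCM2-7 from ORC replicate 1.

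The mean position of all events showed less. The median was 21.6 and 24.4 bp for MCM2-7 against 23.4 and 2 bp for ORC, and the offset per locus, averaged over the 4 pairs, was 9.67 bp (exact permutation test, two-sided, p = 0.667). Against ORC replicate 1 alone it was 1.17 and 3 bp, and against ORC replicate 2 it was 18 and 16.5 bp, so that the offset came from the pairs with ORC replicate 2. Both MCM2-7 centres lay downstream of both ORC centres at 77 loci (30.9%) and upstream at 66 (26.5%). In limma on the mean position along the chromosome, 0 of 345 loci passed (0% called in each direction), with a lowest adjusted p of 0.238 and 60 loci at an unadjusted p below 0.05. On the chromosome, both MCM2-7 centres had higher coordinates than both ORC centres at 105 loci (30.4%) and lower ones at 87 (25.2%).

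The loci with the largest distance between the centres of the proteins went in both directions. Of those given here, only ARS1327 and ARS1612 lay within 500 bp of an annotated origin. At ARS1327, between YMR244W and COA6, the mean MCM2-7 position was 46.0 and 128 bp downstream of the ACS, against -39.6 and -63.5 bp for ORC, which had 2 and 3 events over 140 bp upstream of the ACS. The difference was -138 bp on the chromosome (SE 34.2, limma adjusted p = 0.238). At ARS1612, between PEP4 and the checkpoint kinase gene RAD53, the means were 336.5 and 300.0 bp for MCM2-7 and 214 and 87.0 bp for ORC, both far from the match. The largest difference, 200.5 bp (SE 64.5), was inside IRE1, the sensor of unfolded proteins in the endoplasmic reticulum, with 2 and 1 MCM2-7 events and 2 and 2 ORC events. At a site between ZPR1 and SLI1 the centres differed by 137 bp (SE 22.2), and at one inside YHR140W by -157 bp (SE 69.6). None of these passed the test. ORC replicate 2 had a single event at ARS1612 and inside YHR140W, and MCM2-7 replicate 2 had a single event at ARS1612 and inside IRE1. The events inside IRE1 were weak in all 4 lists, with scores from 66 to 211.

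The place of the first-listed events was also set against the quality of the ACS match. With 14 of 17 bases (35 loci), the first-listed event lay between -50 and +100 bp at 51.4% and 62.9% of the loci for MCM2-7, against 68.6% and 74.3% for ORC. With 15 bases (123 loci) the shares were 76.4% and 78.9% against 87.0% and 74.0%, and with 16 or 17 bases (91 loci) 72.5% and 78.0% against 87.9% and 80.2%. The weakest class was the lowest for both MCM2-7 replicates and for ORC replicate 1 but not for ORC replicate 2, and between the other classes there was no common direction. Windows 2000 bp away held a match of at least 15 bases in 5.41% and 7.37%, against 68.5% of the loci. With at least 14 bases these windows held one in 31.3% and 36.3%. A match of 14 bases thus marks the ACS less surely, and its part in the lower shares was not tested. The mean number of events was similar across the 3 classes, with 5.54 to 6 and 4.82 to 5.31 for the MCM2-7 replicates, against 3.31 to 3.58 and 3.74 to 4.37 for the ORC replicates.

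The comparison was repeated by the surroundings of a locus, as a description without a test. The mean number of MCM2-7 events was 5.58 and 4.83 at the 114 loci between convergent genes, against 3.17 and 3.60 for ORC. At the 153 loci between tandem genes the means were 5.68 and 5.13 against 3.42 and 4.14, and at the 56 between divergent genes 6.02 and 4.79 against 3.29 and 4.32. Inside genes, at 17 loci, MCM2-7 had 5.47 and 4.47 events and ORC 3.88 and 3.71, and the spans of the proteins were close, with 264.5 and 224 bp against 256 and 236.5 bp at 12 loci. Within 20000 bp of a chromosome end (40 loci) the means were 5.33 and 4.75 against 3.58 and 3.60, and within 20000 bp of a centromere (31 loci) 5.90 and 4.90 against 3.32 and 3.39. Both MCM2-7 lists exceeded both ORC lists at 15 of the 42 loci near a chromosome end and at 15 of the 32 near a centromere, beside 42.8% of all loci. By the arrangement of genes this held at 59 of 116 convergent, 66 of 158 tandem and 19 of 57 divergent loci and at 8 of 19 inside genes. The 5 loci beyond the last gene of a chromosome had means of 4.6 and 4 MCM2-7 events against 4.2 and 4.4 ORC events. Both MCM2-7 lists were higher at 0 of them and both ORC lists at 1, beside 42.8% and 3.1% of all loci. With 5 loci, a departure from these shares cannot be judged.

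Near chromosome ends the first-listed events of MCM2-7 stood at 16 and 3 bp from the ACS, against 20 and 7 bp for ORC (31 loci), where over all loci they stood at 34 and 35 bp against 26 and 19 bp. Where the genes on both sides ran in the same direction (153 loci), the first-listed MCM2-7 event was offset from ORC along the direction of transcription by 3, -4, -3 and -3 bp in the 4 pairs, and the mean position by -0.60, 9, 2.53 and 15.8 bp. No common direction along transcription was thus seen for the first-listed event. The bases around the events were alike in composition: 61-bp windows held 66.7% and 66.6% A or T around MCM2-7 events, against 67.8% and 68.2% around ORC events, where the genome holds 61.7%.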

How the data were processed

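ChIP-Exo binding events of Mcm4 and of Orc2 in G1-phase were analysed, with 2 samples each, and the Orc2 lists of G2-phase for a single comparison. The authors aligned reads with Bowtie2 (version 2.3.5) to the sacCer3 (R64) genome and called events per replicate with ChExMix, with a required enrichment of 1.5-fold, a q-value limit of 0.01 and no events in tRNA genes or rDNA. The deposited lists give the position of each event and a score of 66 to 1000, the cap, as written by the authors' caller, whose definition is not given in the sources used here and which is not normalized between lists. The lists hold no read counts, so depth is unknown, and intervals cover counting error only. Coordinates are of R64, while the cells are W303.

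Events of the 4 G1-phase lists up to 250 bp apart were chained into loci. Loci are named by an annotated origin overlapping them or within 500 bp. Numbers (log2 of events + 1), spans (loci with at least 2 events per list) and mean positions were tested with limma (version 3.58.1, R 4.3.3), Benjamini-Hochberg adjusted over all loci at 0.05, and single values per list with the two-sided exact permutation test. The limma fit pools the spread between samples, and the lone sample left when a list is left out is assumed to vary like the others. The functions were tested on simulated lists. Scripts used Python 3.11.15, SciPy 1.17.1, pandas 2.3.3, Matplotlib 3.10.9 and NumPy 2.4.6.

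Named loci are the origins named by the study (ARS1, ARS305, ARS607 and ARS1021), the 5 with the largest difference in number in each direction, the 5 with the largest difference in centre and in span, and up to 3 with most events of a single protein. As none passed the threshold, the largest differences without overlap between the lists were taken, as a description. The members and lists were chosen with earlier results of these data known. The window from -50 to +100 bp, the 25-bp bins, the positions found in both replicates, the classes of ACS match and the joint use of 25 bp with equal lists were added after seeing the data.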

Additional observations from a re-analysis of the deposited data

How the results depend on the processing

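No locus was called for number, span or centre, and this held with the replicate number as a block (0 calls for each) and, for span and centre, when a list was left out. The shared numbers are not known to pair the samples: the deviations of same-numbered samples from their group means correlated at -0.01 for number, -0.05 for span and -0.04 for centre. Calls appeared for the number of events with MCM2-7 higher and ORC higher when chaining up to 100 bp (14 and 8) or 500 bp (4 and 0), with robust eBayes (3 and 1), with the upper part of each list by score, from its median up (29 and 3; only events at the cap remain for MCM2-7), and over the lists left out in turn (0 to 25 and 0 to 5). With the median score, 7 loci had a wider MCM2-7 span and 10 a shifted centre, and chaining up to 500 bp gave 1 shifted centre. The cause of these calls was not tested.

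The mean difference of 1.64 events per locus was -0.00323 with equal numbers of events per list, 0.92 with the median score and 0.99 with events up to 30 bp apart joined, and 1.27 to 2.01 with a list left out. The span difference was 9 bp with equal lists and 45.7 bp with joined events (59.5 to 89 bp with a list left out). The gap difference turned to 4.5 bp with equal lists and 5 bp with the median score, was -13.0 bp with joined events, and ran between -6 and 0.75 bp, positive without MCM2-7 replicate 2. The equal and median settings keep fewer events by construction, and equal lists also bring the mean numbers per locus close together by construction.

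The share of MCM2-7 events with ORC nearby and that of ORC events with MCM2-7 nearby were 70.8% and 71.1% with equal lists, 55.3% and 77.0% with the median score, 60.7% and 75.8% with joined events, 48.4% and 65.7% within 25 bp, and 84.5% and 92.1% within 100 bp. Within 25 bp and with equal lists, added after seeing the data, they were 51.6% and 53.9%. Both proteins were in every list at 310 loci with equal lists and at 217 with the median score. The centre offset of 9.67 bp was 17.4 bp with full matches to the 11-base core, 14.1 bp with equal lists, and 2.93 to 16.8 bp with a list left out. Of the values under alternatives, 93 stayed on their side of the threshold or within the spread between lists, 19 moved by more, 14 gained calls and 4 changed sign. The lists give no depth, so events missed for lack of reads cannot be told apart from absent ones.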
